A study of Allium sativum with 84 samples.

Results

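Genes whose transcripts stay near 1 level across samples serve as reference genes, against which the transcripts of other genes are scaled in quantitative PCR. In plants such genes have commonly been sought among those of the cytoskeleton, of translation and of protein turnover, functions that nearly every living cell needs, although no gene is constant in all tissues and conditions. The bulb of garlic (Allium sativum) consists of cloves, buds whose storage leaf swells while the bulb enlarges.

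The most stably expressed genes of enlarging bulbs are described here, 200 of 57561 annotated genes. They were chosen by their measured values. Genes with a median of at least 20 FPKM over 84 accessions were ranked, without the 100 genes of highest median, by the coefficient of variation (CV, the SD of FPKM over accessions divided by the mean), and the 200 with the lowest CV were kept. FPKM (fragments per kilobase of gene and per 1000000 reads, a unit written as 1 M reads here) is a level per gene length, which allows levels of different genes to be compared. A total of 8322 genes were eligible, so the set holds 2.40% of them, and the genes with which it is compared are the other 8122. Because level and CV selected the set, both are given as a description without a test.

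RNA was sequenced from developing bulbs of 84 accessions, with 1 library for each. According to the study, the accessions were raised at the same farm in Shandong and the bulbs of an accession were pooled, so a site is where an accession came from and not where it grew. The study says this of fewer accessions than the table holds, and the labels and the study differ in the number of bulbs pooled. By the labels, 16 accessions came from 11 countries other than China, with 5 from Canada, 2 from Greece and 1 each from Amrica, Australia, Eygpt, Israel, Japan, Russia, Thailand, Turkey and Ukraine (Amrica and Eygpt as labelled). The other 68 came from China, with 9 from Xinjiang, 6 from Shanxi, 4 from Henan, 4 from Hebei and 15 from Shandong, 6 with no province, and 1 to 3 from each of the other sites, among which Taiwan was counted as the labels have it. Genotypes, treatments and ages were not given in the labels, replicates of a site are different accessions, and the genetic groups of the study were not compared, since the labels do not give them.

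The reads behind the values could be recovered, because each FPKM value is a whole number of reads scaled by gene length and by a total for the library. These totals ran from 11.6 M reads (Shandong replicate 13) to 26.5 M reads (Xiangjiang replicate 1), with a median of 13.6 M reads, and 10 libraries held over 20 M reads. The other 74 held at most 19.7 M reads. The table names genes by ID only, so no function was assigned to a gene, and the tissue was not checked against marker genes. In bulk tissue, fewer cells of a type and less RNA per cell cannot be told apart.

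The stable genes were expressed over a wide range of levels. Their medians ran from 22.2 to 736.65 FPKM, with 60.1 FPKM as the median over the set and 42.6 FPKM over the 8122 eligible genes not chosen. Medians were below 50 FPKM in 76 genes and above 200 FPKM in 14. Asa5G04154.1 was the highest, with 422.3 FPKM in its lowest library (Shandong replicate 8), a median of 736.65 FPKM and 936.4 FPKM in its highest (Gansu replicate 3). Asa8G04842.1 followed, between 379.5 and 824.9 FPKM with a median of 636.8 FPKM, and Asa1G02383.1 lay between 217.4 and 424.3 FPKM with a median of 327.8 FPKM. At the low end stood Asa6G06205.1, between 16.2 and 31.7 FPKM with a median of 22.2 FPKM. The median was 22.3 FPKM in Asa6G00222.1 and 22.9 FPKM in Asa8G02025.1. The stable set thus spans levels between strongly and moderately expressed genes, and none of its genes was at 0 FPKM in any library. Together the 200 genes took 2.30% to 3.20% of the reads of a library, with a median of 2.90%.

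**Figure D1:**
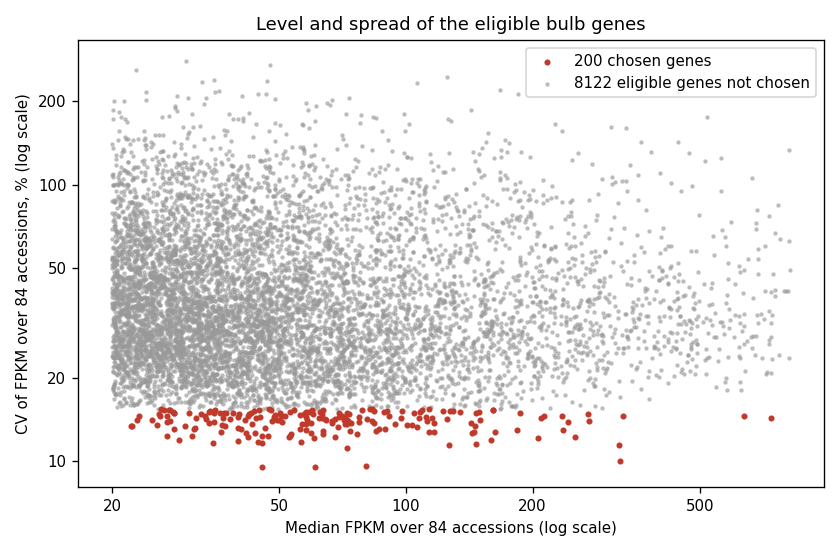
Median FPKM over 84 accessions (x axis, log scale) and CV of FPKM in percent (y axis, log scale) for the 200 chosen genes (red) and the 8122 eligible genes not chosen (grey). The chosen genes form the lower edge of the cloud, between CVs of 9.51% and 15.4%, at medians of 22.2 to 736.65 FPKM.

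The CV of the stable genes ran from 9.51% to 15.4%, with a median of 14.2%, against a median of 34.4% in the eligible genes not chosen. The lowest CV belonged to Asa2G01826.1, which was between 47.1 FPKM (Canada replicate 2) and 82.7 FPKM (Xinjiang replicate 9) with a median of 60.8 FPKM. Asa6G04207.1 was nearly as even (CV 9.55%), between 35.3 and 56.4 FPKM with a median of 45.5 FPKM. Asa3G00271.1 had the narrowest range in the set, 63.6 to 96.4 FPKM around a median of 80.3 FPKM, and its highest library was 1.52 times its lowest. These 3 genes had nearly the same CV, and the next CVs were 10.02% in Asa2G02764.1, 11.2% in Asa1G02385.1 and 11.4% in Asa6G01524.1. Asa2G02764.1 and Asa6G01524.1 combined a low CV with high levels. Their medians were 322.7 and 320.4 FPKM, and their lowest library was the same one, Canada replicate 2, with 233.1 and 230.1 FPKM. Asa1G02385.1, with a median of 72.5 FPKM, ran from 56.1 to 94.9 FPKM.

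At the other end of the set the boundary was tight. The last 3 genes inside were Asa7G05187.1 (CV 15.39%), Asa3G01555.1 (15.40%) and Asa1G00343.1 (15.41%), and the first 3 outside were Asa1G02753.1 (15.41%), Asa8G05206.1 (15.41%) and Asa4G05120.1 (15.42%). These values differ in the second decimal only, so the size of the set is a matter of choice, not of a gap in the values. A low CV still left room for single deviating libraries. Over the set the highest library was 1.52 to 3.35 times the lowest, with a median of 2.19 times. The widest ranges were those of 3 genes of chromosome 4, Asa4G02479.1 (17.2 to 57.6 FPKM, median 35.01), Asa4G05015.1 (19.4 to 64.5 FPKM, median 39.9) and Asa4G05010.1 (15.6 to 50.6 FPKM, median 37.0).

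In total, 187 of the 200 genes stayed between 0.5 and 2 times their own median in every library, as did 1363 of the 8122 eligible genes not chosen. All 200 stayed below 2 times their median, the highest at 1.93 times. The 13 departures were therefore all low values, 1 in each of 13 genes, down to 0.422 times the median (Asa4G05010.1 in Canada replicate 5). They fell in 6 libraries only, 3 each in Canada replicate 5, Gansu replicate 3 and Shandong replicate 8, 2 in Canada replicate 2, and 1 each in Sichuan replicate 1 and Xinjiang replicate 9. Of the 13 values, 7 were in the 10 deepest libraries.

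**Figure D2:**
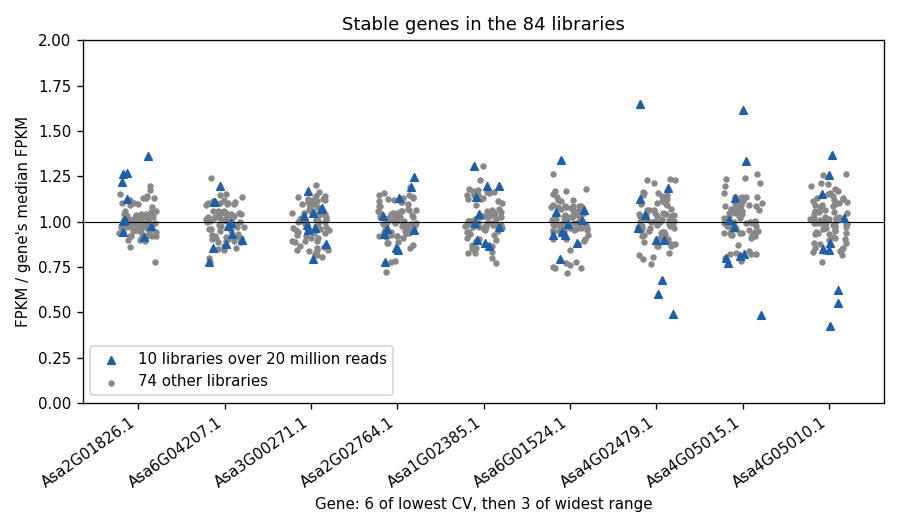
FPKM divided by the median FPKM of the gene (y axis, no unit) in each of 84 libraries for the 6 genes of lowest CV and the 3 of widest range (x axis). Triangles are the 10 libraries over 20 M reads and circles the 74 others, and in the 3 genes on the right the triangles reach down to 0.422 times the median.

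The part of read counting in these CVs was estimated and not tested. A stable gene rested on 1647 reads in a library (median over the set), and an eligible gene not chosen on 595. If reads were counted independently, counting alone would give 3.21% of the squared CV of a stable gene (median over the set), with 0.240% as the lowest share and 13.4% as the highest. The stable genes were longer than the others. The gene length used by the authors, recovered from the values, had a median of 1762.5 bases in the set against 852 in the eligible genes not chosen, and it is close to a coding length, since 97.5% of the lengths in the set are multiples of 3. Lengths under 1000 bases occurred in 16% of the set and in 58.8% of the others. Among genes with at least 1000 reads, the median length was 1905 bases in the set (155 genes) and 1261.5 bases in the others (2370 genes). The median level of these genes was 66.9 FPKM in the set and 109.4 FPKM in the others. Since reads rise with both length and level, a limit on reads does not separate them. A length of 11628 bases was used for Asa6G06205.1, the gene with the lowest median, whereas Asa1G02383.1 had 426 bases and 2043 reads.

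The shared level of the set in a library was measured as the geometric mean over the 200 genes of FPKM divided by the median of the gene. The rule, which kept genes of low spread over these libraries, keeps it near 1. It ran from 0.822 in Canada replicate 2 to 1.101 in Hebei replicate 3, and 79 of 84 libraries lay between 0.9 and 1.1. Its CV over libraries was 5.002% on the values as deposited and 8.66% under median-ratio scaling, in which a library is divided by a factor from all genes above 0 in every library. This factor lay between 0.704 in Gansu replicate 3 and 1.16 in Sichuan replicate 3. Canada replicate 2 had the lowest value of 47 stable genes, and the FPKM of this library summed to the highest total, 1339390 against a median of 1172470 over libraries. Within a site, the median CV of the stable genes was 19.1% over the 5 Canada accessions, 12.6% in Xinjiang, 10.3% in Shanxi, 9.31% in Henan, 12.1% in Hebei and 12.7% in Shandong. The same order did not hold for the eligible genes not chosen in every site, but Canada was the widest there too, with 41.6%.

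**Figure D3:**
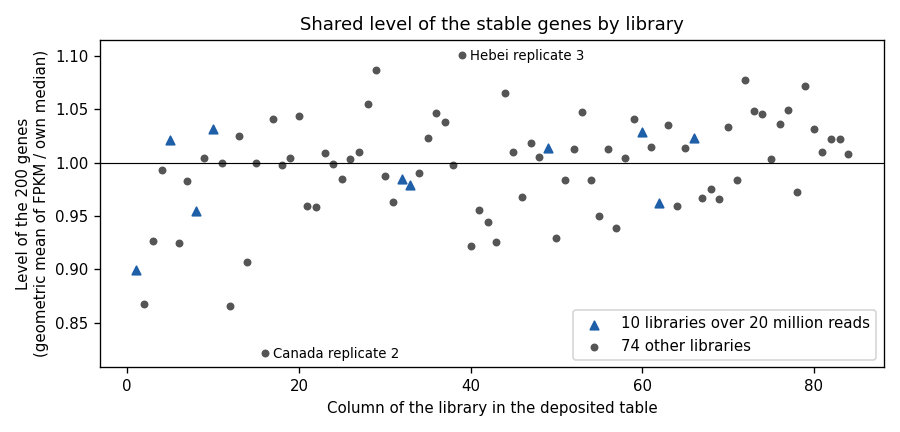
Shared level of the 200 stable genes (y axis, geometric mean of FPKM divided by the median of the gene) for each library in the column order of the deposited table (x axis). Most libraries lie between 0.9 and 1.1, Canada replicate 2 is lowest at 0.822, and Hebei replicate 3 is highest at 1.101.

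The scatter of the set was wider in the 10 deepest libraries than in most others. The SD over the 200 genes of log2(FPKM divided by the median of the gene) was 0.21 to 0.37 in the 10 libraries over 20 M reads, with a median of 0.32, and 0.11 to 0.32 in the 74 others, with a median of 0.16. In 6 of the 74 others it exceeded the lowest value of the 10. Among the 74 it was widest in Shandong replicate 8 (12.8 M reads), while the deepest of them, Shandong replicate 5 (19.7 M reads), had 0.16. Of the 200 stable genes, 130 (65%) had their highest value and 89 (44.5%) their lowest value in 1 of these 10 libraries, which make up 11.9% of all libraries. Canada replicate 1 was the highest library for 26 genes, Sichuan replicate 2 for 23 and Yunan replicate 1 for 22, whereas 39 libraries were highest for none. In the eligible genes not chosen, the same SD had a median of 0.99 in the 10 deep libraries and 0.79 in the others. The part of depth in the spread of the set was not tested.

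**Figure D4:**
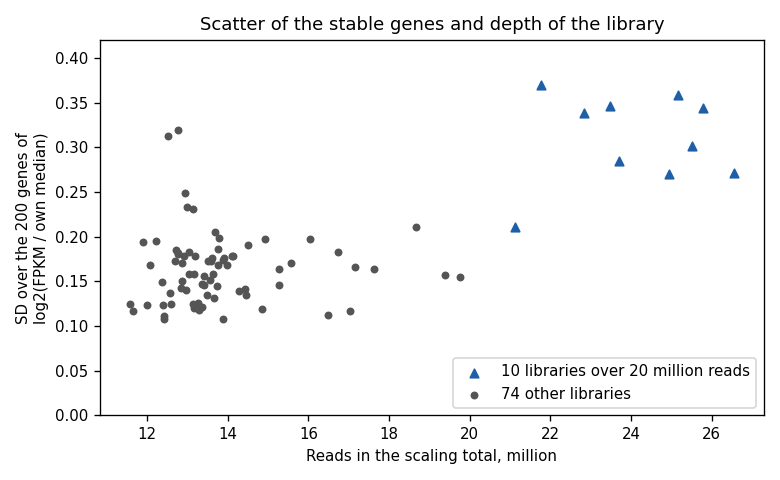
Scaling total of a library in M reads (x axis) and SD over the 200 stable genes of log2(FPKM divided by the median of the gene) (y axis) for 84 libraries. The 10 libraries over 20 M reads (triangles) lie between 0.21 and 0.37, above most of the 74 others (circles, 0.11 to 0.32).

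The make-up of the set depended on how spread was measured, but a part of it recurred under each of 8 alternatives. Without the 10 deep libraries 65.5% of the 200 genes were chosen again, under median-ratio scaling 54.5%, and with the median absolute deviation in place of the SD 51%. Not part of this count were limits of 10 and 40 FPKM on the median, the 100 highest genes kept in, and 1 accession of each site. Of the 200 genes, 92.5%, 75.5%, 99.5% and 66.5% were chosen again under these. Under the 8 alternatives counted (3 scalings, 2 measures of spread and 3 choices of libraries), 31 genes were chosen every time and 1, Asa4G01125.1, never. The 31 include 17 of the 20 genes of lowest CV and all 6 named above. Their CVs were 9.51% to 13.8% and their medians 28.9 to 322.7 FPKM, and they lie on each of the 8 numbered chromosomes, with 7 on chromosome 5. For Asa2G01826.1 the CV was 7.77% without the deep libraries and 14.7% under median-ratio scaling. Asa2G02764.1 moved less, with a CV of 12.5% under median-ratio scaling.

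The gene IDs place the stable genes on all chromosomes. Chromosome 6 held 32 of them, chromosomes 5 and 7 held 28 each, chromosome 8 held 24, chromosome 2 held 23, chromosomes 1 and 3 held 20 each and chromosome 4 held 18, and 7 IDs start with 0, read here as unplaced sequence. Per 100 eligible genes, this is 2.98 on chromosome 1, 2.85 on chromosome 5, 2.79 on chromosome 6 and 2.60 on chromosome 3. The lowest shares were 1.90 on chromosome 4 and 1.56 among unplaced genes, against 2.40 over all. The median CV by chromosome lay between 13.7% on chromosome 3 and 14.9% on chromosome 4. Adjacent IDs occurred in 3 pairs. Asa6G05367.1 and Asa6G05368.1 had medians of 143.3 and 93.95 FPKM, Asa1G02167.1 and Asa1G02168.1 of 236.3 and 69.4 FPKM, and Asa8G05564.1 and Asa8G05565.1 of 57.97 and 23.2 FPKM. After division by the shared level of the library, Pearson's r over the 84 libraries was 0.17, -0.10 and -0.31 in these pairs, none of them above 0.2.

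Over all 19900 pairs of stable genes the median of Pearson's r was 0.13 on log2 FPKM. Division by the shared level, which is computed from the same genes, centres such values near 0, and after it 4 pairs exceeded 0.7. The most alike were Asa6G05497.1 and Asa4G02379.1 (r = 0.77 over 84 libraries), which share their lowest library, Canada replicate 2, and their highest, Sichuan replicate 2. All pairs share the same libraries and their depths, so these values are descriptions. In the components of expression computed from the 35807 tested genes outside the set, the first 3 held 27.2%, 13.4% and 9.58% of the variance. The stable genes had a median of 16.8% of their log2 variance along the 3 components, and the other eligible genes 33.1%. The rule used the spread over the same libraries, so this is a description and not a test. The share passed 50% in 2 of the 200, Asa1G04167.1 (52.0%) and Asa6G05148.1 (50.1%), and Asa7G04250.1 was next with 49.97%. In Asa1G04167.1 and Asa7G04250.1 most of it lay along the first component (38.8% and 42.9%), whereas in Asa6G05148.1 it lay along the third (31.03%) and the second (19.04%). Asa1G04167.1 ran from 63.6 FPKM in Qinghai replicate 1 to 119.9 FPKM in Shandong replicate 14, and Asa6G05148.1 from 17.3 FPKM in Xinjiang replicate 3 to 41.3 FPKM in Gansu replicate 3. The Shannon-Wiener index H', the measure of expression diversity used in the study, had a median of 2.89 bits in the stable genes and 2.81 in the other eligible genes. Its intervals are set by the mean and SD of each gene, so it describes the shape of the distribution and not the size of the spread.

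The next comparison asked whether stable genes still differ between countries. All 200 passed the filter on low values. Fitted with limma over all 36007 tested genes, 2 stable genes were called between other countries and China (1%), both lower, while 3.67% of all tested genes were called (adjusted p under 0.05). The rule kept the spread small, which limits the size of any such difference. The changes of the stable genes were small, between -0.23 and 0.16 on the log2(FPKM + 1) scale. Their median was -0.03, against -0.05 over all tested genes, and 64 of the 200 were positive, as were 41.4% of all tested genes. This direction turned with scaling, since under median-ratio scaling the median of the stable genes was 0.01, and under quantile normalization 94 of the 200 were positive.

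Asa0G04570.1 was lower in other countries. It ran from 87.4 to 138.1 FPKM with a median of 108.8 FPKM in the 16 accessions from other countries, and from 83.2 to 205.2 FPKM with a median of 130.3 FPKM in the 68 from China. The groups overlap widely, but 15 of the 16 lay below the median of China. The fitted log2 difference was -0.23 ± 0.06 (SE), with a limma adjusted p of 0.0107, and the mean was 111.1 ± 14.6 FPKM in other countries and 131.03 ± 18.4 FPKM in China (SD, n = 16 and 68), which is 15.2% less. It kept the call when any 1 accession of Canada, Henan or Hebei was left out. Of 10 alternatives it lost the call under median-ratio scaling only, and adjusted p ran from 0.00506 to 0.103. Asa7G01643.1 was lower too, at 36.2 to 54.4 FPKM with a median of 41.04 FPKM in other countries and 35.9 to 65.3 FPKM with a median of 48.0 FPKM in China, and 13 of the 16 lay below the median of China. The fitted log2 difference was -0.17 ± 0.05 (SE), with a limma adjusted p of 0.0364. It passed the threshold in 5 of 10 alternatives (adjusted p from 0.0197 to 0.243) and lost the call when any 1 of the 5 Canada accessions was left out, with the highest adjusted p of these at 0.0564.

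The count of calls rested on single libraries and on scaling. It was 1 without Canada replicate 2, 3, 4 or 5, always Asa0G04570.1, where 2.35% to 4.65% of all tested genes were called. Without Canada replicate 1 it was 5 (5.06% of all tested genes were called), all lower, namely Asa0G04570.1, Asa0G01170.1, Asa2G04483.1, Asa6G05209.1 and Asa8G01738.1. Under median-ratio scaling it was 0, where 3.31% of all tested genes were called. At an unadjusted p under 0.05 there were then 13 stable genes (17.6% of all tested genes), and 23 on the values as deposited (18.1% of all tested genes). Without the 10 deep libraries, 2 of which are from other countries and 8 from China, 5 stable genes (2.5%) and 6.28% of all tested genes were called. Of these 5, Asa0G04570.1, Asa2G04483.1 and Asa6G05209.1 were lower in other countries and Asa1G01402.1 and Asa3G04103.1 higher. The genes added by these counts were named after their values were seen.

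The last comparison set the sites with at least 4 accessions, 43 accessions in all, against Shandong, the site with most accessions. Among the 5 sites only Canada had calls. There 3 of the 200 stable genes were called (1.5%), all lower, while 1.35% of all 33913 tested genes were called. No stable gene was called in Xinjiang, Shanxi, Henan or Hebei, where 0% of all tested genes passed the adjusted threshold, or by the F test over the 6 sites, where 0.0442% of all tested genes passed. At an unadjusted p under 0.05 there were 37 of the 200 stable genes in Canada, 9 in Xinjiang, 0 in Shanxi, 0 in Henan, 1 in Hebei (Asa6G02878.1) and 9 by the F test. Of all tested genes the same threshold was passed by 16.6% in Canada, 11% in Xinjiang, 2.46% in Shanxi, 0.537% in Henan, 1.17% in Hebei and 9.08% by the F test. The ordinary analysis of variance called no stable gene in Xinjiang, Shanxi, Henan or Hebei or by the F test either. In Canada it called 7 stable genes (3.5%) and 1.69% of all tested genes. Two-sided limma fits with trend gave all other values of these comparisons.

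Asa4G05010.1 had the widest difference of the set. In Canada replicates 1 to 5 it had 22.96, 28.6, 35.1, 31.4 and 15.6 FPKM, against 33.5 to 46.4 FPKM with a median of 39.01 FPKM in the 15 Shandong accessions. In 4 of the 5 Canada accessions it was below every Shandong accession, and Canada replicate 3 lay inside their range. The mean was 26.8 ± 7.7 FPKM in Canada and 39.3 ± 3.1 FPKM in Shandong (SD, n = 5 and 15), and the fitted log2 difference was -0.59 ± 0.12 (SE), with a limma adjusted p of 0.0114. In the other sites the median lay between 35.4 FPKM in Xinjiang and 38.5 FPKM in Hebei. The 2 lowest values are those of the 2 Canada libraries over 20 M reads, replicates 1 and 5, while no Shandong library is as deep, and the part of depth in this difference was not tested. Without the deep libraries the log2 change was -0.30 and was not called (adjusted p = 0.118), and without Canada replicate 5 it was -0.41 (adjusted p = 0.0720).

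Asa7G05820.1 had 29.7, 41.2, 29.3, 42.7 and 40.9 FPKM in Canada replicates 1 to 5, against 40.5 to 58.1 FPKM with a median of 50.4 FPKM in Shandong. All 5 lay below the median of Shandong and 2 below its lowest accession, replicates 1 and 3. The fitted log2 difference was -0.45 ± 0.11 (SE, n = 5 and 15), with a limma adjusted p of 0.0329. It lost the call without Canada replicate 1, 3 or 5, with adjusted p up to 0.132. Asa0G01170.1 had 29.02, 23.2, 18.1, 19.5 and 14.7 FPKM in Canada replicates 1 to 5, against 20.1 to 35.6 FPKM with a median of 27.6 FPKM in Shandong. A log2 difference of -0.43 ± 0.11 (SE, n = 5 and 15) was just past the threshold, with a limma adjusted p of 0.0486, and it lost the call without Canada replicate 3, 4 or 5. In columns 24 to 84 of the table, which hold 1 Canada library, replicate 1, the difference was 0.0017. Adjusted p over the 10 alternatives ran from 0.00329 to 0.118 for Asa4G05010.1, from 0.00375 to 0.337 for Asa7G05820.1 and from 0.0218 to 0.997 for Asa0G01170.1. The values 0.00375 and 0.997 come from columns 24 to 84, where a single Canada library is assumed to vary like those of other sites.

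**Figure D5:**
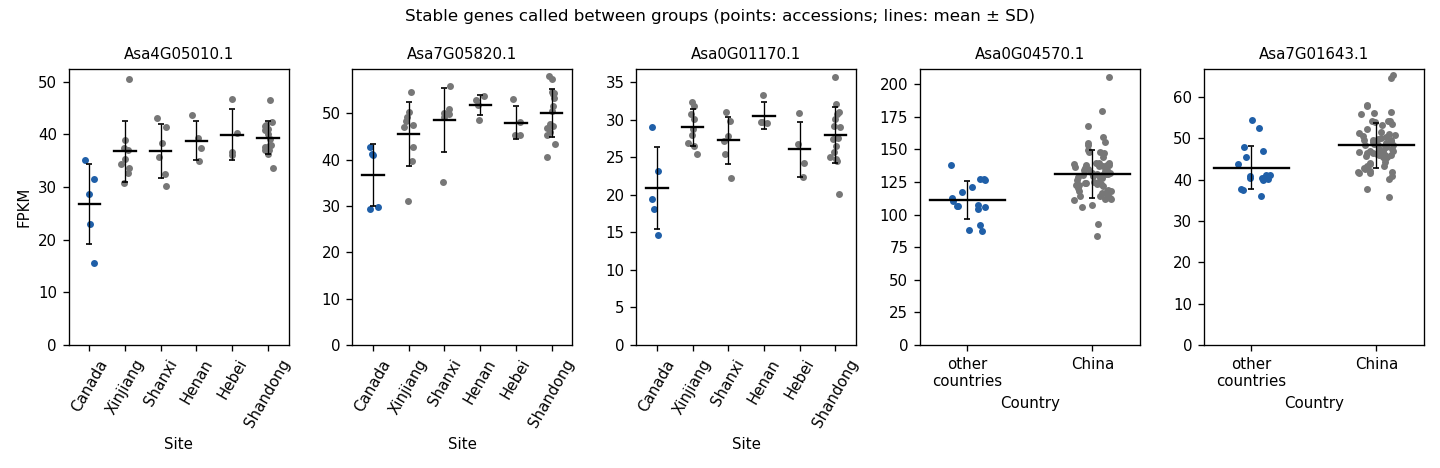
FPKM (y axis, starting at 0) of the 5 stable genes called in a comparison, with 1 point per accession and lines for the mean ± SD, by site for the 3 genes called in Canada and by country for the 2 called between other countries and China. In Asa4G05010.1, 4 of the 5 Canada accessions lie below every Shandong accession, and in Asa0G04570.1 the groups overlap although 15 of 16 accessions lie below the median of China.

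The direction of the Canada difference depended on scaling. On the values as deposited the median log2 change was -0.06 in the stable genes and -0.17 over all tested genes, so the stable genes stood 0.11 above the median gene. Under quantile normalization both medians were -0.02. Relative to the median gene, the changes of the called genes were -0.42 in Asa4G05010.1, -0.28 in Asa7G05820.1 and -0.26 in Asa0G01170.1. Median-ratio scaling moved the median of all tested genes to -0.03 and that of the stable genes to 0.14. The 8 stable genes then called (4%, against 1.05% of all tested genes) were all higher in Canada. Over all genes 342 of the 459 calls were lower as deposited, and 80 of 354 under median-ratio scaling. The 3 genes named here had negative changes under this scaling too (-0.39, -0.25 and -0.23), none of them called. Among the 8 was Asa1G02385.1, of the 6 genes of lowest CV, with a log2 difference of 0.42 under median-ratio scaling (limma adjusted p = 0.0116). At an unadjusted limma p under 0.05 there were 34 stable genes without Canada replicate 5, and 13.8% of all tested genes. The count of calls in Canada was 0 without replicate 5, 1 without replicate 3 (Asa4G05010.1), 3 without replicate 2, 5 without replicate 4 and 6 without replicate 1. Over all tested genes the share called was 0.328% without replicate 5, 0.393% without replicate 3, 2.47% without replicate 2, 1.77% without replicate 4 and 3.65% without replicate 1. The 5 without replicate 4 were Asa4G05010.1, Asa7G05820.1, Asa1G03754.1, Asa3G04168.1 and Asa8G04482.1, all lower. Without the deep libraries it was 2, Asa0G01170.1 and Asa2G04483.1, both lower, and 2.16% of all tested genes were called.

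The rule kept differences between sites small, so the following values describe what remained. Over the 6 comparisons (other countries, and each of 5 sites against Shandong), 44 of the 200 stable genes had every log2 change within 0.1 in size, 56 had a change of at least 0.2, and 1, Asa4G05010.1, had a change of at least 0.5. For 95 genes the widest of the 6 changes was that of Canada. Asa3G00271.1 ranged from -0.02 in Canada to 0.04 in Xinjiang and Asa2G01826.1 from -0.09 in Henan to 0.02 in Hebei. The site medians of Asa2G01826.1 were 63.0 FPKM in Canada, 60.7 in Xinjiang, 61.5 in Shanxi, 59.5 in Henan, 67.9 in Hebei and 62.4 in Shandong. Among the 6 genes of lowest CV, Asa1G02385.1 had the widest change, 0.22 in Canada on the values as deposited (limma adjusted p = 0.204). The neighbours Asa8G05564.1 and Asa8G05565.1 had log2 changes of 0.37 and -0.39 in Canada, neither past the threshold (limma adjusted p = 0.0716 and 0.0800).

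Genes that the study names for bulb traits were looked up, and none of those looked up is in the set. Most of them were not eligible, because their median FPKM lay outside the level limits of the rule. Medians were 1.81 FPKM in Asa2G00237.1 and 1208.38 FPKM in Asa0G05638.1, for example. The absence of the genes that were not eligible follows from their level and says nothing about their spread. Asa6G01110.1 was at rank 5886 of the 8322 eligible genes by CV (47.1%) and Asa2G00681.1, described in the study as an ELF4-like gene, at rank 7335 (75.5%).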

How the data were processed

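RNA of enlarging bulbs was sequenced by the authors from 84 garlic accessions. The study used HISAT2 (the submitters' processing notes give 2.2.1.0) at default settings to place cleaned paired-end reads on its garlic assembly, and the deposited values are FPKM, computed by the authors for each gene. The counting program is not given in the sources used here. Whole reads (or read pairs, called reads here), gene lengths and scaling totals were recovered from the deposited FPKM for all 41395 genes above 0 in at least 8 libraries (values within 0.001 of whole reads). The reads of these genes make up 99.96% to 100.0% of the scaling totals. Because the totals are reads assigned to genes, a level is relative to the other genes of the library. 0 columns of per-sample values were left unused.

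Members, gene lists and tests were chosen with earlier results of these data known. Groups come from the site in the labels, and nothing in them says that accessions are unrelated, so p-values measure only the spread between these accessions. Fits used limma 3.58.1 (R 4.3.3) with trend on log2(FPKM + 1), which understates the change of low genes, over genes that reached 1 FPKM in 4 or more of the fitted accessions, two-sided, with Benjamini-Hochberg adjustment and a threshold of 0.05. The study used an ordinary analysis of variance between genetic groups, and that test was run between the sites as an alternative. The fits were tested on simulated data. The components were computed without the stable genes. Tables were handled in Python 3.11.15 with pandas 2.3.3 on NumPy 2.4.6, intervals came from SciPy 1.17.1, and plots were drawn with Matplotlib 3.10.9.

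The genes named are the 6 of lowest CV, the 3 of highest and 3 of lowest median, the 3 on each side of the CV limit, the called genes of each comparison (at most 3 in each direction), the 3 of widest range, those with adjacent IDs (at most 3 pairs), any gene in the set that the study names (1 gene that the rule leaves out is not reported here), and the 3 with the largest share along the first 3 components. Others are named where a count is small. Alternatives were other scalings, pseudocounts, filters, measures of spread, level limits, choices of accessions and a covariate for blocks of table columns (columns 1 to 7, 8 to 23 and 24 to 84), whose breaks were found in these data.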

Additional observations from a re-analysis of the deposited data

Results flagged for a closer look

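In groups of 4 to 10 accessions, 42 sets of values were searched for an accession far from the others of its group, and 4 were found, where chance gives about 1 in 20. Asa0G01170.1 had 33.3 FPKM in Henan replicate 1, while the other 3 Henan accessions lay between 29.5 and 29.7 FPKM. Asa4G05010.1 had 50.6 FPKM in Xinjiang replicate 9, 1 of the libraries over 20 M reads, while the other Xinjiang accessions reached at most 38.9 FPKM. Asa7G05820.1 had 35.3 FPKM in Shanxi replicate 3, below the next lowest accession of the site at 49.3 FPKM. The same gene had 42.1 FPKM in replicate 4 of the accessions from China with no province, below the next lowest of that group at 48.4 FPKM. The shared level of the stable genes had no such accession in any of these groups. Shandong, with 15 accessions, was not searched.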

How the results depend on the processing

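No paired analysis was possible because replicate numbers only name accessions and the labels give none. Added after seeing the data were TPM scaling (each library scaled to the same sum), leaving out the 10 libraries over 20 M reads, and, for the fits, columns 24 to 84 alone, where Canada has 1 library. All alternatives for the shared level, the components and the chromosomes were also added then. Of the 200 genes, 54.5% were chosen again under median-ratio scaling, 65.5% under quantile normalization, 51% with the median absolute deviation, 66.5% with 1 accession of each site, 60% in columns 24 to 84, 65.5% without the deep libraries, and 91.5% to 99% when 1 accession was left out. The median CV (14.2%) was 16.3% under median-ratio scaling, 12.5% in columns 24 to 84, 12.4% without the deep libraries and 13.95% to 14.2% with 1 accession left out. The CV of the shared level was 8.66% under median-ratio scaling, against 5.002%. The 2 calls between other countries and China became 0 under median-ratio scaling, 1 under quantile normalization, 1 with the column block, 4 with ordinary analysis of variance, 5 under TPM scaling, 5 without the deep libraries and 1 to 5 with 1 accession left out. Over all tested genes the share called was 3.31%, 3.6%, 3.67%, 3.62%, 3.99% and 6.28% in the same order. It was 2.35% to 5.06% with 1 accession left out. In columns 24 to 84, 3 stable genes and 7.8% of all tested genes were called between other countries and China. The 3 calls in Canada became 8 under median-ratio scaling, 1 under quantile normalization, 1 with the column block, 7 with ordinary analysis of variance, 6 under TPM scaling, 14 in columns 24 to 84 and 0 to 6 with 1 accession left out. Of all tested genes, 1.05% were called in Canada under median-ratio scaling, 0.785% under quantile normalization and 0.127% with the column block. The share was 1.69% with ordinary analysis of variance, 2.39% under TPM scaling and 0.328% to 3.65% with 1 accession left out. The count of 14 rests on a fit with 1 Canada library. In columns 24 to 84, with 1 Canada library, Asa0G01170.1 had a log2 change of 0.0017 in Canada, against -0.43. The variance along the components (16.8%) ran from 15.3% to 21.4%, and the share of genes on chromosome 6 (16%) from 12% to 17%. The causes were not tested. The counts in Henan, Hebei and by the F test stayed at 0 with 1 accession left out. In columns 24 to 84 the count by the F test was not 0, and it rests on a fit with 1 Canada library. With 4 or 5 accessions at a site and 1 library per accession, a small difference may not have been detectable.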
